A study of Homo sapiens with 30 samples.

Results

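An ethanol extract of Poria Cocos, the sclerotium of a wood-decaying fungus, was compared with an ethanol extract of Atractylodis Rhizoma, the rhizome of a plant of the daisy family, at matched doses in human SW1783 cells. SW1783 is an established astrocytoma line. The comparison uses 6 of the 30 libraries of the series: the 3 labelled Poria Cocos and the 3 labelled Atractylodis Rhizoma, paired by dose at 500, 100 and 20 µg/mL after 24 h. Each extract has 1 library per dose. The spread behind every test therefore comes from the 7 groups that have 3 libraries, which hold 21 libraries, and the 6 single libraries are assumed to vary like them and have no replicate check of their own. Those groups are the vehicle (0.1% DMSO by the sample labels, 2% by the design text of the series) and the water extracts of 2 herbal formulas, Palmul-tang and Sibjeondaebo-tang, at the same 3 doses. The labels do not tell whether libraries of a group are separate cultures, so p-values reflect the spread between libraries, which may be technical. Vehicle was not an arm of the comparison and is given beside it as a level only, because its libraries carry another sample code than the extract libraries, which share one.

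Both drugs belong to the tonic herbs of Korean medicine. Poria is known for lanostane-type triterpenes such as pachymic acid and for polysaccharides, of which ethanol draws mainly the former. Atractylodes rhizomes are known for sesquiterpenes and polyacetylenes. The content of these extracts was not measured in the data used here.

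The 6 libraries held 23.77 to 32.09 M counts each, against 22.57 to 37.82 M over all 30 libraries. Genes of the mitochondrial chromosome took 6.66% to 7.36% of the counts. Of the 11 astrocyte markers, 6 reached 1 CPM (the counts-per-million scale) in these libraries, among them VIM, CD44, GJA1 and SLC1A3. GFAP, AQP4, ALDH1L1, SLC1A2 and S100B stayed under 1 CPM, so the defining markers of mature astrocytes were at or near 0. All 5 fibroblast and mesenchymal markers were present. Of 5 markers each, 4 of neurons, 2 of microglia and macrophages (CD68 and PTPRC) and 1 of oligodendrocytes (MBP) reached 1 CPM. MOG of oligodendrocytes and AIF1 of microglia had no count.

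The first question was how far apart the extracts stand at each dose. Over the 10284 genes whose mean log2 CPM reached 3, the median absolute log2 difference between the libraries of both extracts was 0.0507 at 20 µg/mL, 0.0588 at 100 µg/mL and 0.0938 at 500 µg/mL. Pairs of libraries from 1 group of 3 differed by 0.0485 to 0.106, with a median of 0.0545 over 21 pairs. The lowest dose therefore lay below the median of replicate pairs. The highest dose lay above every replicate pair except the 2 that involve replicate 3 of Sibjeondaebo-tang at 500 µg/mL, at 0.0973 and 0.106. Within an extract, the libraries at 500 and 20 µg/mL were 0.075 apart for Poria and 0.0692 apart for Atractylodis.

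**Figure D1:**
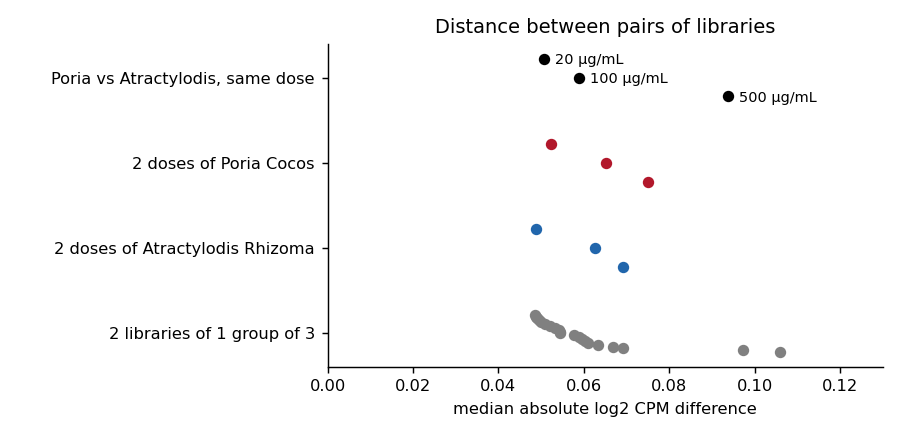
Median absolute log2 CPM difference (horizontal axis) between pairs of libraries over 10284 genes, 1 point per pair. The dose-matched pairs of both extracts rise from 0.0507 at 20 µg/mL to 0.0938 at 500 µg/mL, beside pairs of doses within each extract and 21 pairs of libraries within groups of 3.

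Gene by gene, 17839 genes were tested with the quasi-likelihood test of edgeR, and a gene is called where its p, adjusted by Benjamini and Hochberg's method, is under 0.05. At 500 µg/mL, 500 genes were called (2.8% of those tested), of which 249 were higher in Poria (1.4%) and 251 were lower (1.41%). At 100 µg/mL 3 genes differed (0.0168%), all higher in Poria. At 20 µg/mL 1 gene differed (0.00561%), lower in Poria. These counts depend on the setting: without a filter on low counts 18 and 7 genes were called at 100 and 20 µg/mL, DESeq2's Wald test called 10 and 2, and with a trend of GC content and length removed, a setting chosen after seeing the data, 949 were called at 500 µg/mL and 10 at 100 µg/mL. For the mean of the 3 doses 253 genes were called (1.42%), 128 higher (0.718%) and 125 lower (0.701%). An unadjusted p under 0.05 was reached by 2635 genes at 500 µg/mL, 774 at 100 µg/mL and 535 at 20 µg/mL, where 892 are expected with no difference.

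Most of the differences were small. Of the 500 genes called at 500 µg/mL, 87 were past 1.5-fold and 17 past 2-fold. The 95% interval of the difference lay inside 1.5-fold for 95.3% of the 10284 genes at 500 µg/mL, for 98.3% at 100 µg/mL and for 98.6% at 20 µg/mL. At the lower doses a difference of that size was thus outside the interval for nearly all genes of moderate or high level. Smaller ones were called for few genes, such as F3 at 100 µg/mL (1.27-fold), and others may be missed with 1 library per extract and dose.

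**Figure D2:**
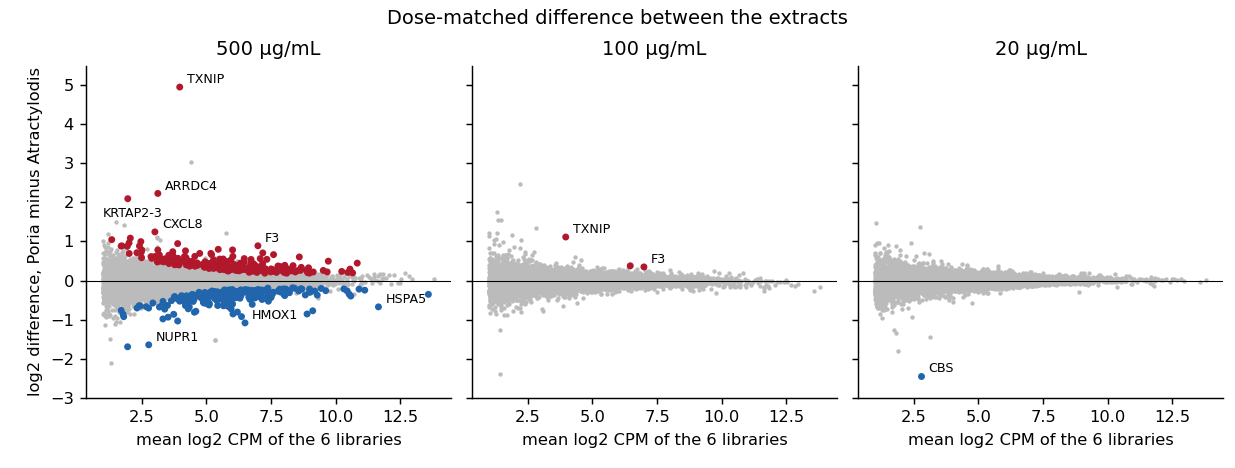
Log2 difference (Poria minus Atractylodis, vertical axis) against the mean log2 CPM of the 6 libraries (horizontal axis) for 12719 genes at each dose. Red and blue points are genes called higher and lower in Poria, grey points were not called, and 3 points outside the plotted range, none of them called, are not drawn. TXNIP is the highest called gene at 500 and 100 µg/mL.

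TXNIP, which codes for an arrestin-fold protein that binds thioredoxin and limits glucose uptake, had the largest difference of the called genes with a mean log2 CPM of 1 or more at 500 µg/mL. The gene lies on the minus strand of chromosome 1, from 145992435 to 145996600 in GRCh38. Its level was 8.41 CPM at 20 µg/mL, 17.7 CPM at 100 µg/mL and 198 CPM at 500 µg/mL of Poria. With Atractylodis it was 9.06, 8.18 and 6.41 CPM at the same doses. The single Poria libraries were higher at each higher dose, and those of Atractylodis were all below vehicle. Vehicle stood at 10 ± 0.309 CPM (SD, n = 3), and the 18 formula libraries ran from 8.44 to 17.4 CPM with a median of 9.88. The difference at 500 µg/mL was 30.9-fold, a log2 difference of 4.95 ± 0.13 (SE) with an adjusted p of 2.51e-25. At 100 µg/mL the log2 difference was 1.11 ± 0.14 (adjusted p = 3.97e-05), and at 20 µg/mL it was -0.11 with a 95% interval of -0.42 to 0.20.

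ARRDC4, another alpha-arrestin known to be induced together with TXNIP by sugars, followed at 500 µg/mL. It stood at 6.18, 7.82 and 30.9 CPM at 20, 100 and 500 µg/mL of Poria, and at 6.33, 6.55 and 6.59 CPM with Atractylodis. The 5 other libraries of both extracts lay within the 18 formula libraries, which ran from 5.58 to 8.15 CPM. Its log2 difference was 2.23 ± 0.13 at 500 µg/mL (adjusted p = 2.43e-14) and 0.26 at 100 µg/mL, which did not pass (adjusted p = 0.999).

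Both genes are textbook targets of MondoA and ChREBP, transcription factors that act with their partner MLX when glucose phosphates accumulate or energy metabolism changes, and that bind a tandem E-box-like sequence called the carbohydrate response element. The 250 bases before the start of each gene are shown because the 2 members led the comparison, with matches in capitals (RefSeq, GRCh38.p14, 5′ to 3′ on the strand of the gene). The window of TXNIP is chr1:145996580-145996829, minus strand, and that of ARRDC4 is chr15:97960453-97960702, plus strand.
TXNIP: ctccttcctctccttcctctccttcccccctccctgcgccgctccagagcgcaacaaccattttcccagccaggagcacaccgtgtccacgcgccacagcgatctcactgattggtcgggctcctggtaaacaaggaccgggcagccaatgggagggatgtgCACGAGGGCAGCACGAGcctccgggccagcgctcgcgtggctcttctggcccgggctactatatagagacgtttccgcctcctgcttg
ARRDC4: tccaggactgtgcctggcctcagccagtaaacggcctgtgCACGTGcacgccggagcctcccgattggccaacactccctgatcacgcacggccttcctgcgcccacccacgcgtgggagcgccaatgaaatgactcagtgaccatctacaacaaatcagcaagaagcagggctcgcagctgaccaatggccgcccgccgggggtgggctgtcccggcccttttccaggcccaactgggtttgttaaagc
The reference table gives TXNIP another start as well, whose window (chr1:145995745-145995994) holds none of the patterns searched, and the window shown was chosen as the one next to the annotated start of the gene. The capitals in TXNIP match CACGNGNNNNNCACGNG, searched on both strands, from 88 to 72 bases before the start. This pattern is found in 16 of 35116 promoter windows of the same length (0.0456%). The capitals in ARRDC4 mark CACGTG, an E-box on its own, 210 bases before the start, which 6.34% of the windows hold. The longer pattern was not found in the ARRDC4 window. A match describes letters only, and binding was not measured.

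Genes of the unfolded protein response, the programme by which the endoplasmic reticulum raises its chaperones when unfolded proteins build up, were lower with Poria. HSPA5, the main chaperone of that compartment (BiP), lies on chromosome 9 from 125234853 to 125241330, minus strand. It stood at 3440, 2964 and 2277 CPM at 20, 100 and 500 µg/mL of Poria and at 3617, 3555 and 3632 CPM with Atractylodis. Every Poria library was thus below every Atractylodis library, and the 18 formula libraries ran from 3127 to 3651 CPM beside 3344 ± 129 CPM in vehicle (SD, n = 3). The log2 difference was -0.67 ± 0.06 at 500 µg/mL (adjusted p = 4.08e-10) and -0.26 at 100 µg/mL (adjusted p = 0.252).

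HERPUD1, which serves the degradation of endoplasmic reticulum proteins, showed the largest difference of the list. Its levels were 85.8, 75.2 and 56.3 CPM at 20, 100 and 500 µg/mL of Poria and 89.4, 86.6 and 107 CPM with Atractylodis. The log2 difference at 500 µg/mL was -0.92 ± 0.08 (adjusted p = 8.21e-10). Vehicle was higher than all 6 libraries at 125 ± 5.12 CPM (SD, n = 3).

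Of the 21 members of the list, 18 were lower in Poria at 500 µg/mL and none was higher, and 13 were lower for the mean of the 3 doses. Over all genes tested 1.41% were called lower and 1.4% higher at 500 µg/mL, the shares to set beside this list and those below. The median log2 difference of the list at 500 µg/mL was -0.35, beside -0.0018 over all genes tested. At 100 µg/mL edgeR called no member, 8 had an unadjusted p under 0.05 and DESeq2's Wald test called 2, with a median of -0.10. At 20 µg/mL no member was called by either tool, none had an unadjusted p under 0.05, and the median was -0.03. Besides the pair above, DNAJB9, a co-chaperone of HSPA5, differed by -0.59 and MANF, a secreted stress protein, by -0.53 on the log2 scale at 500 µg/mL. CALR, a calcium-binding chaperone, differed by -0.40 and HSP90B1 by -0.35. XBP1, a transcription factor of the response, differed by -0.28. ERN1, the sensor that splices XBP1, was not called (log2 difference -0.06, 95% interval -0.27 to 0.16), nor were SYVN1 and SEC61B.

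The promoters of HSPA5 and HERPUD1 are shown with matches to the patterns searched in capitals. The HSPA5 window is chr9:125241344-125241593, minus strand, and the HERPUD1 window is chr16:56931892-56932141, plus strand.
HSPA5: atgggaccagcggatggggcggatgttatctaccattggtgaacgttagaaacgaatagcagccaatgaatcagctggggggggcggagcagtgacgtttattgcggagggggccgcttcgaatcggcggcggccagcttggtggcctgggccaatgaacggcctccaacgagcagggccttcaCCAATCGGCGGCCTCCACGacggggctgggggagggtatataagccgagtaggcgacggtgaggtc
HERPUD1: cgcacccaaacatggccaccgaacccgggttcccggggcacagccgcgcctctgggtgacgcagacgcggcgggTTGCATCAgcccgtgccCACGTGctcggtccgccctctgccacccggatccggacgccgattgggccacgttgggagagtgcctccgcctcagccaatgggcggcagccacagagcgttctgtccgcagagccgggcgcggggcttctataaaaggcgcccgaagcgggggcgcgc
The capitals in HSPA5 match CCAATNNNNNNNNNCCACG, the endoplasmic reticulum stress element, from 66 to 48 bases before the start. It occurs in 26 of the 35116 windows (0.074%). In HERPUD1 the capitals mark TGATGCAA, the core of the amino acid response element, on the opposite strand 176 bases before the start (0.772% of windows) and an E-box at 159 bases (6.34%). The stress element in this spelling was not found in the HERPUD1 window. Other forms of the element were not searched, so the window cannot be said to lack one.

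ATF4 is the transcription factor that raises amino acid synthesis and transport when protein synthesis is held back, and part of its targets was lower in Poria too. Of 31 members tested, 16 were lower at 500 µg/mL and none was higher, with a median log2 difference of -0.30, and 10 were lower for the mean of the doses. Some members are shared with other lists, as stress pathways overlap. NUPR1, a small stress-induced chromatin protein, stood at 7.06, 6.41 and 3.44 CPM at 20, 100 and 500 µg/mL of Poria and at 7.59, 7.3 and 10.8 CPM with Atractylodis. Its log2 difference at 500 µg/mL was -1.65 ± 0.17 (adjusted p = 8.86e-08). ASNS, which makes asparagine, stood at 59.3, 55.3 and 49.9 CPM with Poria and at 63.8, 66.2 and 82.5 CPM with Atractylodis in the same order of doses, a log2 difference of -0.73 at the highest dose. For both genes the extracts moved apart to either side of the level at 20 µg/mL. PSAT1 and PHGDH of serine synthesis differed by -0.81 and -0.60, DDIT3, a factor linked to cell death under stress, by -0.81, and ATF4 itself by -0.45. GDF15, a stress cytokine, had the lowest fitted log2 value of the list at -1.70 ± 0.40, with 2.44 CPM in Poria and 7.89 CPM in Atractylodis at 500 µg/mL (adjusted p = 0.0298). STC2 and ATF5 were the only members with a positive value, and neither was called.

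**Figure D3:**
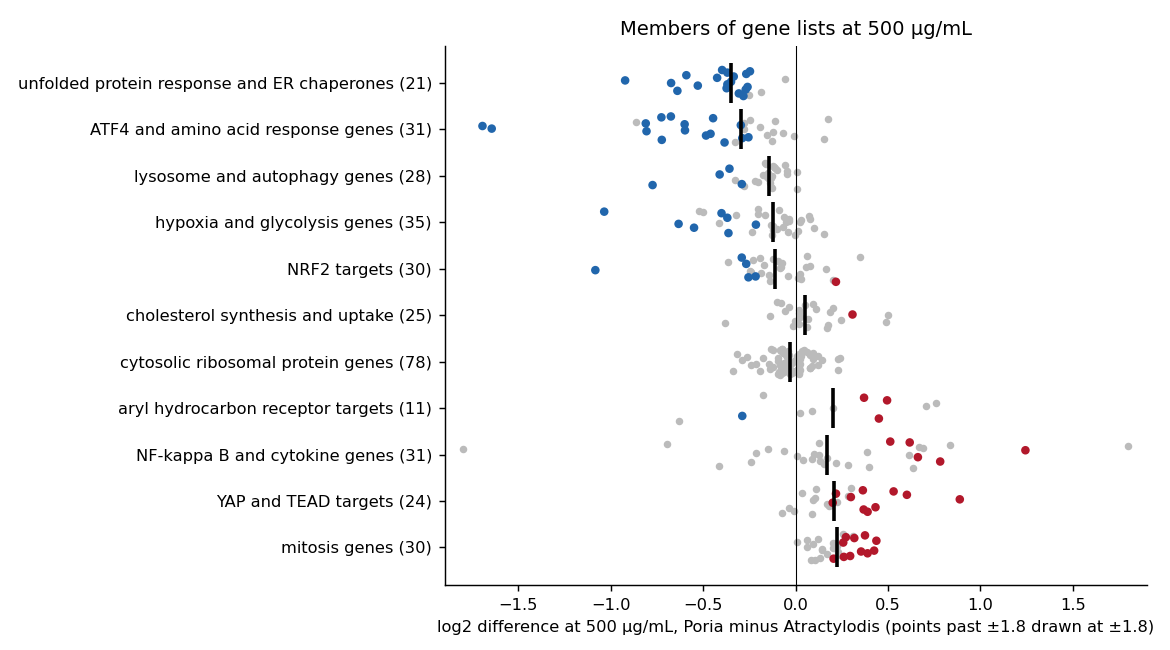
Log2 difference at 500 µg/mL (horizontal axis, Poria minus Atractylodis) of each tested member of 11 gene lists, with the number tested in brackets. Red and blue points were called higher and lower in Poria, grey points were not called, and the black bars are medians: -0.35 for the unfolded protein response and 0.22 for mitosis genes.

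HMOX1, which breaks down haem and is induced by oxidants through NRF2 and BACH1, was lower in Poria at 500 µg/mL, with the highest level in the Atractylodis library of that dose. It stood at 65.8, 80.8 and 213 CPM at 20, 100 and 500 µg/mL of Atractylodis and at 68.9, 67.2 and 100 CPM with Poria. Vehicle was at 78.5 ± 1.57 CPM (SD, n = 3) and the formula libraries ran from 60.4 to 75.2 CPM. The log2 difference at 500 µg/mL was -1.08 ± 0.08 (adjusted p = 3.59e-12). SQSTM1, the autophagy receptor p62, was at 543, 564 and 792 CPM with Atractylodis and at 522, 480 and 463 CPM with Poria, a log2 difference of -0.77 ± 0.06 (adjusted p = 1.39e-10). The exons of SQSTM1 share 1582 of 7654 bases with MRNIP on the other strand, and the counting strand is not stated.

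Of 30 NRF2 targets tested, HMOX1 among them, 5 were lower in Poria at 500 µg/mL and 1, TXNRD1, was higher, with a list median of -0.11. NQO1, a quinone reductase and a common readout of NRF2, was at 155, 178 and 247 CPM with Poria and at 156, 170 and 243 CPM with Atractylodis. Both extracts thus gave the same order over the doses, and the log2 difference at 500 µg/mL was 0.02 with a 95% interval of -0.08 to 0.13. SLC7A11, the cystine importer, stood at 120.7, 140.4 and 182.6 CPM with Poria and at 115.6, 132.7 and 217.9 CPM with Atractylodis (log2 difference -0.26, adjusted p = 0.0394). FTH1, the ferritin heavy chain, differed by -0.27 (adjusted p = 0.0135), and 1267 of its 2030 exon bases lie opposite to BEST1.

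A few genes of lipid storage and low oxygen were higher with Atractylodis at the highest dose, 2 of 16 and 7 of 35. PLIN2, the coat protein of lipid droplets, was at 48.9, 55.8 and 96.6 CPM at 20, 100 and 500 µg/mL of Atractylodis and at 54.3, 55.2 and 62.9 CPM with Poria. Its log2 difference at 500 µg/mL was -0.62 ± 0.07 (adjusted p = 2.63e-07). ANGPTL4, a secreted lipase inhibitor, was at 11.3, 15.8 and 26.7 CPM against 12.4, 13.1 and 13 CPM, a log2 difference of -1.04 ± 0.12 (adjusted p = 4.37e-07). Vehicle stood at 21.3 ± 1.27 CPM of ANGPTL4 (SD, n = 3), below Atractylodis at 500 µg/mL and above the other libraries of both extracts. PLIN2 and ANGPTL4 were the only called members of the 16 tested lipid droplet and PPAR genes. Of 35 hypoxia and glycolysis genes, 7 were lower in Poria at 500 µg/mL and none higher, with a median of -0.12. They included NDRG1, a stress and hypoxia marker (-0.63), PFKFB4 of glycolytic control (-0.55) and the neuronal-type enolase ENO2 (-0.37). LDHA, GAPDH and PGK1, core enzymes of glycolysis, were not called. Of 28 lysosome and autophagy genes, 4 were lower in Poria: SQSTM1, GPNMB, CTSD and PSAP.

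**Figure D4:**
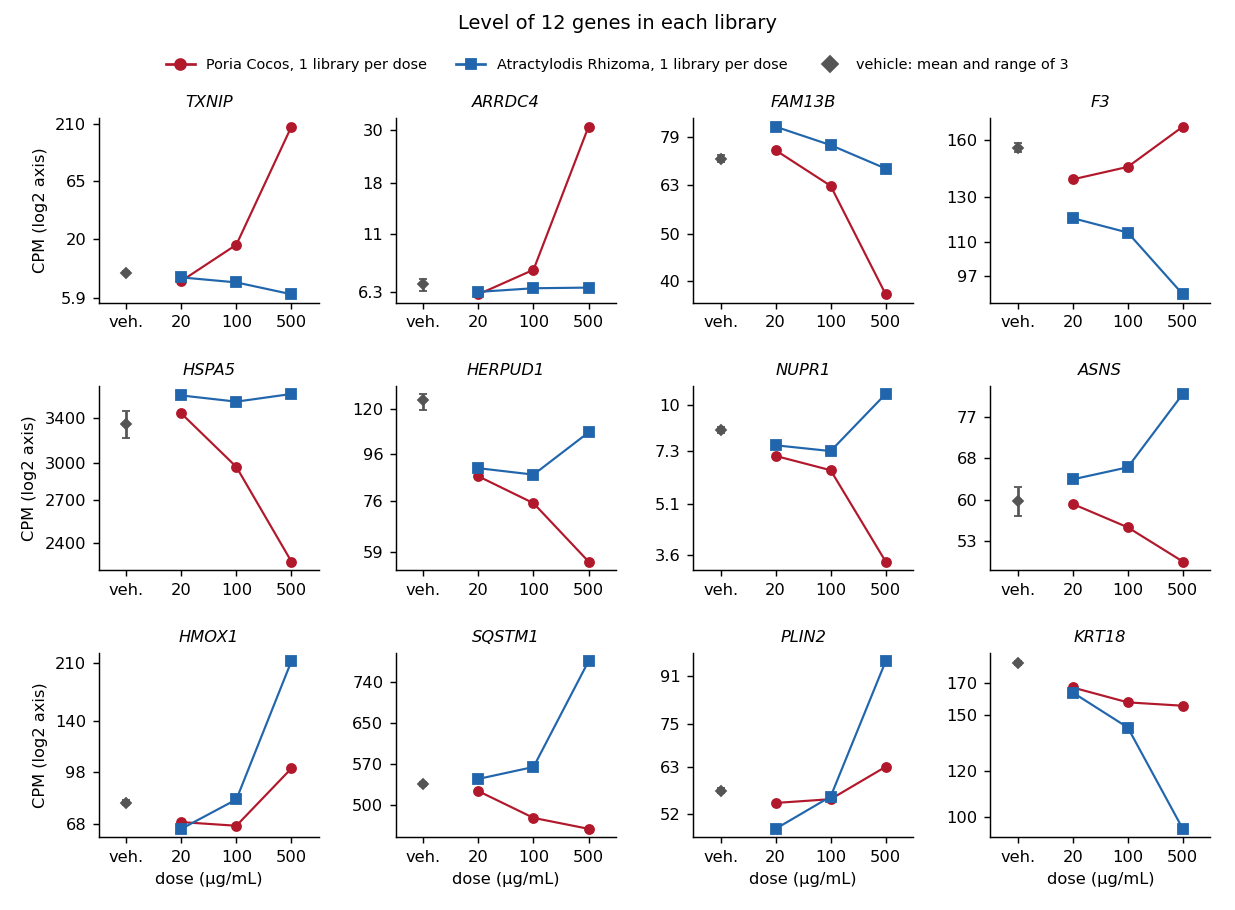
CPM (log2 axis, each panel with its own range) of 12 genes against dose in µg/mL for Poria (red circles) and Atractylodis (blue squares), 1 library per point, with the mean and range of 3 vehicle libraries in grey. The extracts are close at 20 µg/mL and apart at 500 µg/mL, as for TXNIP with 198 against 6.41 CPM.

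Some targets of YAP and TEAD, transcription regulators that respond to cell shape and tension, were higher in Poria. Of 24 tested, 10 were higher at 500 µg/mL and none lower, with a median log2 difference of 0.21, and 4 were higher for the mean of the doses. F3, the tissue factor that starts coagulation, lies on chromosome 1 from 94529225 to 94541800, minus strand. It stood at 138, 145 and 168 CPM at 20, 100 and 500 µg/mL of Poria and at 120, 114 and 90.8 CPM with Atractylodis. The levels of the extracts did not overlap, and vehicle was 155 ± 2.77 CPM (SD, n = 3). The log2 difference was 0.89 ± 0.07 at 500 µg/mL (adjusted p = 1.3e-11) and 0.35 ± 0.06 at 100 µg/mL (adjusted p = 0.035). CCN1, a matricellular protein, was at 402, 378 and 479 CPM with Poria and at 382, 373 and 315 CPM with Atractylodis, a log2 difference of 0.60. ANKRD1 differed by 0.53, whereas CCN2, another classic target, was not called (0.28, 95% interval -0.09 to 0.66).

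KRT18, a keratin of the cytoskeleton, was lower in Atractylodis. It was at 164, 143 and 95.4 CPM at 20, 100 and 500 µg/mL of Atractylodis and at 167, 158 and 156 CPM with Poria, and the log2 difference at 500 µg/mL was 0.71 ± 0.06 (adjusted p = 1.9e-10). Its exons share 525 of 3218 bases with its partner KRT8 on the other strand, and KRT8 was higher in Poria as well (0.49, adjusted p = 0.0214). The summed level of the 5 epithelial markers, of which these 2 alone reached 1 CPM, was 175.7 to 185.2 CPM in Poria and 109.7 to 184 CPM in Atractylodis when scaled by the library total alone, without TMM, while EPCAM and CDH1 were at or near 0.

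All 30 mitosis genes had a positive log2 difference at 500 µg/mL, and 11 of them were called higher in Poria with none lower. Their median was 0.22, and 9 were higher for the mean of the doses. KIF20A, a kinesin of cell division, was at 118, 120 and 126 CPM at 20, 100 and 500 µg/mL of Poria and at 114, 114 and 93.6 CPM with Atractylodis, a log2 difference of 0.43 ± 0.06 (adjusted p = 1.09e-05). MKI67, the proliferation marker, was at 272, 284 and 286 CPM with Poria and at 265, 247 and 218 CPM with Atractylodis, a log2 difference of 0.39 ± 0.08 (adjusted p = 0.00271). In both genes the Poria libraries stayed close together and the Atractylodis library at 500 µg/mL was the lowest. Of 32 DNA replication genes only RRM2 and UHRF1 were called, both higher in Poria. In bulk RNA, fewer cells of a type and less RNA per cell cannot be told apart, and cell numbers were not part of the data used here.

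Inflammatory genes were in part higher in Poria than in Atractylodis. Of 31 tested, 5 were called higher at 500 µg/mL and none lower, with a list median of 0.17. CXCL8, a neutrophil chemokine, was at 6.25, 8.45 and 19.1 CPM at 20, 100 and 500 µg/mL of Poria and at 4.55, 6.83 and 8.07 CPM with Atractylodis. Its log2 difference at 500 µg/mL was 1.24 ± 0.20 (adjusted p = 0.00152). PTGS2, the inducible cyclooxygenase, was at 61.6, 72.1 and 94.4 CPM with Poria and at 52.6, 58.6 and 54.9 CPM with Atractylodis, a log2 difference of 0.78 ± 0.09 (adjusted p = 7.04e-07). LIF (0.66), CCL2 (0.62) and BIRC3 (0.51) were the other called members on the same scale. The vehicle mean was 10.9 CPM for CXCL8, 93 for PTGS2, 56.9 for LIF, 40.8 for CCL2 and 15.2 for BIRC3. Poria at 500 µg/mL was above it for CXCL8, near it for PTGS2, LIF (57.3 CPM) and BIRC3 (14.8 CPM), and below it for CCL2 (28.3 CPM). Atractylodis at that dose was below it for all 5. IL6 was not called, with levels of 4.07 to 5.36 CPM in the 6 libraries, and NFKBIA, the feedback inhibitor of NF-kappa B, was not either.

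Among immediate early genes 3 of 31 were higher and 1, KLF4, was lower in Poria at 500 µg/mL. FOSL1, an AP-1 subunit, was at 187, 193 and 265 CPM at 20, 100 and 500 µg/mL of Poria and at 178, 182 and 168 CPM with Atractylodis, a log2 difference of 0.66. Its vehicle mean was 277 CPM. EGR1 differed by 0.69. Of 11 aryl hydrocarbon receptor targets, AHRR (0.37), TIPARP (0.45) and ALDH1A3 (0.50) were higher and SLC7A5, also an ATF4 target, was lower. ALDH1A3, which makes retinoic acid, was at 779.9, 911.6 and 1126 CPM with Poria and at 705.1, 767.3 and 798.6 CPM with Atractylodis. CYP1A1, the classic target of that receptor, was at 2.47 and 1.51 CPM at 500 µg/mL and was not called, and CYP1B1 was called for the mean of the doses only.

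In several groups no difference was called at 500 µg/mL. By edgeR no member passed among 78 cytosolic ribosomal protein genes, 39 interferon response genes, 13 fatty acid synthesis genes, 17 BMP targets or 13 mitochondrially encoded genes, 160 genes in all, with medians between -0.04 and 0.11. Over all genes tested 2.8% were called at this dose. Of the 160 genes, 15 had an unadjusted p under 0.05, beside 2635 of the 17839 genes tested, and DESeq2's Wald test called 2. The 15 were unevenly spread: 4 of 13 fatty acid synthesis genes and 4 of 17 BMP targets, shares above that of all genes. The other lists were below it, with 4 of 78 ribosomal protein genes, 3 of 39 interferon response genes and no mitochondrially encoded gene. Of 25 genes of cholesterol synthesis and uptake, INSIG1 alone was called (0.31), and HMGCS1 was not. Of 15 heat shock genes, HSPA8 and HSP90AB1 were called higher in Poria by 0.29 and 0.20, while HSPA1A was not called. The heat shock list was nevertheless shifted to one side at 500 µg/mL. All 15 log2 differences were positive, with a median of 0.16, and 7 genes had an unadjusted p under 0.05 by edgeR.

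A few genes outside these groups also differed. FAM13B, which codes for a GTPase-activating domain protein, was at 74.3, 62.8 and 37.6 CPM at 20, 100 and 500 µg/mL of Poria and at 83, 76.1 and 68.1 CPM with Atractylodis. Every Poria library but that at 20 µg/mL was below every Atractylodis library, and the log2 difference at 500 µg/mL was -0.85 ± 0.07 (adjusted p = 1.9e-10). NEAT1, the long RNA that builds paraspeckles, was at 490, 436 and 306 CPM with Poria and at 599, 525 and 554 CPM with Atractylodis, without overlap (log2 difference -0.86, adjusted p = 4.37e-07). Vehicle was at 298 ± 12 CPM of NEAT1 (SD, n = 3), and the formula libraries ran from 445 to 622 CPM. The Poria library at 500 µg/mL was thus at the level of vehicle, and the other libraries of both extracts were above it. CEMIP, a hyaluronan-degrading protein, was higher in Poria by 0.80 and PLAU, the urokinase, by 0.54. KRTAP2-3, a keratin-associated protein, was at 3.52, 5.16 and 8.93 CPM against 3.16, 2.84 and 2.09 CPM (log2 difference 2.09 ± 0.20, adjusted p = 6.21e-09). It belongs to a family of near-identical genes, so its reads may be shared, and the same holds for ANXA8L1 (1.08).

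The genes called at 100 µg/mL included TXNIP and F3, whose values are given above. Both were also called at 500 µg/mL, with larger log2 differences, and neither was called at 20 µg/mL. The next genes by p, such as HSPA5, PLAU, BEX1 and FAM13B, did not pass.

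At 20 µg/mL the 1 called gene was CBS, cystathionine beta-synthase of the transsulfuration pathway, with 1.69 CPM in Poria and 9.18 CPM in Atractylodis (log2 difference -2.44 ± 0.20, adjusted p = 1.91e-09). CBS has a near-identical copy, CBSL. The rounded expected counts of CBS and CBSL were 50 and 172 in the Poria library and 232 and 0 in the Atractylodis library. Their sums were 222 and 232, or 7.5 and 9.18 CPM, a log2 ratio of -0.29, and over all 30 libraries the sum ran from 200 to 363. The call thus compares how reads were divided between 2 copies and is not a difference of their total. At 500 µg/mL, where CBSL held 3 counts in Poria and 2 in Atractylodis, CBS was also lower in Poria (log2 difference -0.70).

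Genes called at 500 µg/mL were read in the 4 libraries of the other doses, which took no part in that call. Of the 249 genes higher in Poria, 219 (88%) had the same sign at 100 µg/mL and 194 (77.9%) at 20 µg/mL. Of the 251 lower genes, 213 (84.9%) and 159 (63.3%) kept their sign. Among all genes tested these shares were 49.2% to 50.4%. The median log2 differences shrank with dose, from 0.37 to 0.09 and 0.05 for the higher genes and from -0.37 to -0.09 and -0.03 for the lower ones. The mean of the 3 doses rested mainly on the highest: of its 253 called genes, 235 (92.9%) had their largest difference at 500 µg/mL, against 46.3% of all tested genes. Without the pair at 500 µg/mL the mean of the other doses called 2 genes.

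The last comparison asked whether the change from 20 to 500 µg/mL differed between the extracts, which was tested as the difference of both changes. It did for 59 genes (0.331% of those tested), of which 58 were also called at 500 µg/mL. The change was higher in Poria for 24 (0.135%) and lower for 35 (0.196%). For 30 of them the larger own change was that of Poria, 13 up and 17 down, and for 29 it was that of Atractylodis, 18 up and 11 down. In 46 genes the own changes had opposite signs.

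The named genes fall to both sides. In Poria, the log2 change from 20 to 500 µg/mL was 4.56 for TXNIP, 2.32 for ARRDC4, -0.60 for HSPA5 and -0.98 for FAM13B, while in Atractylodis it was -0.50, 0.06, 0.01 and -0.29. In Atractylodis it was 1.69 for HMOX1, 0.98 for PLIN2, 1.24 for ANGPTL4, 0.54 for SQSTM1 and -0.78 for KRT18, while in Poria it was 0.54, 0.21, 0.07, -0.17 and -0.10. For HERPUD1, NUPR1 and F3 both moved, in opposite directions. Of the unfolded protein response, 6 of 21 genes had a lower change in Poria, and of the ATF4 list 7 of 31. CBS is among the 59, with a higher change in Poria that does not hold for the sum of CBS and CBSL. From 20 to 500 µg/mL the sum went from 7.5 to 7.3 CPM in Poria and from 9.18 to 11.8 CPM in Atractylodis.

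**Figure D5:**
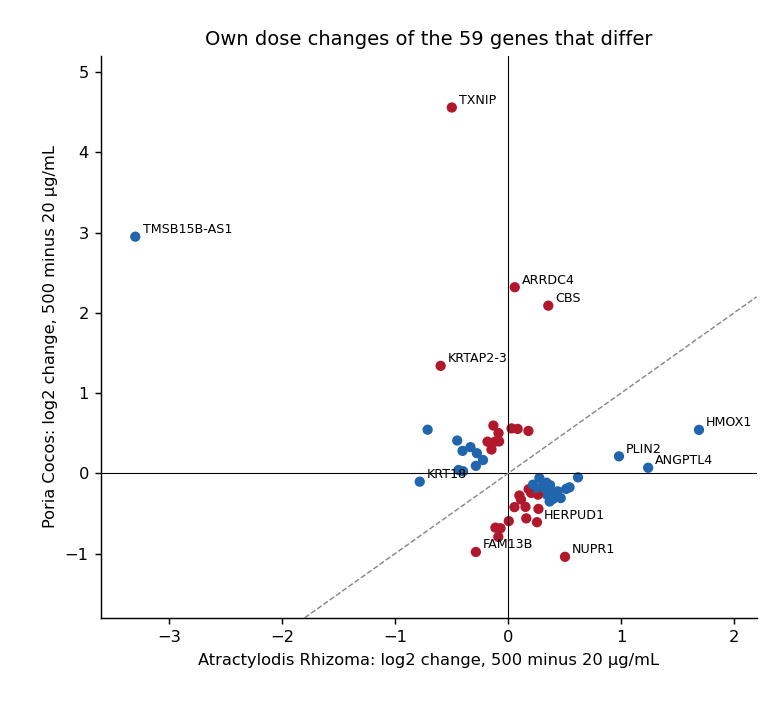
Log2 change from 20 to 500 µg/mL with Atractylodis (horizontal axis) and with Poria (vertical axis) of the 59 genes whose changes differed. Red points changed more with Poria (30 genes) and blue points more with Atractylodis (29 genes), and the dashed line marks equal changes. TXNIP and ARRDC4 lie far up and HMOX1, ANGPTL4 and PLIN2 far to the right.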

How the data were processed

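RNA of SW1783 cells was read as 100-base pairs with a directional kit, per the labels' protocols. Reads were processed with FastQC 0.11.9, Trim Galore 0.6.5, STAR 2.7.3a and RSEM 1.3.3 on hg38, per the submitters' processing notes. The deposited values are RSEM's expected counts per gene, of which 24% of the nonzero ones were not whole. Strandedness of counting, gene annotation release and filters are not given in the sources used here. Of 279 columns, 30 were used, and 249 per-sample columns were not analysed here. Total counts ran from 22.57 to 37.82 M.

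Counts were rounded, and 17839 of 60675 genes passed edgeR's filterByExpr. With R 4.3.3 and edgeR 4.0.16, scaling by TMM, estimateDisp and glmQLFit (robust) gave 1 mean for each of the 16 groups of the 30 libraries, at 14 residual degrees of freedom. The differences were tested with glmQLFTest and Benjamini-Hochberg adjustment at 0.05. CPM are scaled by TMM, log2 CPM use a prior count of 2, and intervals are at 95%. Symbols and positions come from GENCODE 29 on GRCh38, and promoters from RefSeq. On simulated data with 200 changed genes, the test of the mean of doses made 204 calls, 20 of them false, and that at 500 µg/mL made 157, 6 of them false. Of changes of 1.25, 1.5 and 2-fold it recovered 79.1%, 97% and 100% for the mean of doses and 41.8%, 86.6% and 98.5% at 500 µg/mL. Recovery was not broken down by expression level, so these shares need not hold for genes of low counts. A simulation also cannot check the assumption that the single libraries vary like the replicated groups. The 36 lists held 748 genes, of which 706 were tested. Genes named by rule have a symbol and at least 1 mean log2 CPM: the 10 largest called values each way for the mean of doses and 5 each way in the others (filled by the smallest p where fewer were called), up to 4 members of a list, and fixed markers. Results of a few genes that the rule or the lists name are not reported here. Other list members are given as examples chosen after their values were seen. The comparison, the members and the lists were chosen with earlier results of these data known. Alternatives were DESeq2's size factors and its Wald test (DESeq2 1.42.0), no filter, fewer libraries, thinned counts, a replicate block, each library or dose pair left out, and a trend of GC content and length removed, which was chosen after seeing the data.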

Additional observations from a re-analysis of the deposited data

Results flagged for a closer look

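The change from 20 to 500 µg/mL differed between Poria and Atractylodis for 59 genes by edgeR's quasi-likelihood test of the difference of both changes, with Benjamini-Hochberg adjustment. The values here are log2 differences of the changes, Poria minus Atractylodis, each from 4 single libraries. Among named genes the change was higher in Poria for TXNIP (5.05), ARRDC4 (2.26), KRTAP2-3 (1.94), CBS (1.73), ARHGDIB (1.26), EGR1 (0.73), F3 (0.68), KRT18 (0.68), CEMIP (0.66), FOSL1 (0.59), CCN1 (0.53), CCNA2 (0.39), KIF20A (0.38) and ALDH1A3 (0.35). It was lower in Poria for NUPR1 (-1.54), ANGPTL4 (-1.17), HMOX1 (-1.15), HERPUD1 (-0.86), DNAJB9 (-0.78), PLIN2 (-0.77), DDIT3 (-0.72), PSAT1 (-0.72), SQSTM1 (-0.72), FAM13B (-0.70), NDRG1 (-0.67), ASNS (-0.62), HSPA5 (-0.60), NEAT1 (-0.56) and MANF (-0.48). The value of CBS rests on the library at 20 µg/mL of Poria, in which most of its reads were assigned to the copy CBSL. With CBSL added, the higher change in Poria does not hold. KRTAP2-3 has near-identical relatives. Beyond the naming rule, TMSB15B-AS1 had the highest value of all, 6.26 ± 1.45 (SE, adjusted p = 0.0421), at a mean log2 CPM under 1, and was picked out after its value was seen. No group of 3 libraries was screened for single outlying libraries, since that screen needs at least 4.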

How the results depend on the processing

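Counts of called genes moved with the setting more than their direction did. With the 500 µg/mL pair left out, the mean of doses called 2 genes, and with the 100 or the 20 µg/mL pair left out 181 or 376. A fit on the 6 libraries alone with dose as a block called 1 gene, which was not among the 253 (2 residual degrees of freedom limit it). Removing a trend of GC content and length, a setting chosen after seeing the data, gave 465 genes for the mean of doses, 949 at 500 µg/mL, 10 at 100 µg/mL and 105 for the change from 20 to 500 µg/mL. Without a filter 18 genes were called at 100 µg/mL and 7 at 20 µg/mL, and DESeq2's Wald test called 10 and 2. Thinned counts left 1 at 100 µg/mL. Leaving out each library of the groups of 3 in turn gave 213 to 401 genes for the mean of doses, 456 to 771 at 500 µg/mL, 2 to 4 at 100 µg/mL, 1 at 20 µg/mL and 48 to 81 for the change. The highest of each range but that at 20 µg/mL came without replicate 3 of Sibjeondaebo-tang at 500 µg/mL (401 and 771), the library of the widest replicate pairs. Formula libraries of the same replicate number share a sample code. In their deviations from the group means, same-numbered libraries correlated by -0.183 to 0.326 (median 0.0469), with 23 of 63 pairs over 0.1. Whether the numbers mark a pairing was not tested, and the main fit leaves them out. A replicate block gave 326, 654, 3, 1 and 78 genes for the mean of doses, 500, 100, 20 µg/mL and the change. Apart from those given, counts under the alternatives run stayed within 1.5 times the value reported. Of 190 calls of named genes, 82 held under every alternative run. The fit on the 6 libraries alone kept 0 of the 76 calls for the mean of doses, so none of these is among the 82. Of 5624 values, 5191 kept direction and side of the threshold, 431 kept only direction, and 2 reversed for the mean of doses without the 500 µg/mL pair: over the dose pairs left out NDRG1 ran from -0.303 to 0.0308 and PLIN2 from -0.317 to 0.0683. The cause of these shifts was not tested.

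With 1 library per extract and dose, the median half-width of the 95% interval was 0.179 at 500 µg/mL and 0.181 at 100 and 20 µg/mL on the log2 scale, over genes whose mean log2 CPM reached 3. For a gene with a half-width of that size, the interval of a smaller difference includes 0. Library and extract cannot be told apart at a given dose.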
